A study of Rattus norvegicus with 6 samples.

Results

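The genes that carry bile acids into and out of liver cells, together with the bile acid receptor FXR and its target SHP, were described in liver RNA. The set held 10 genes, taken by symbol from the 32930 gene rows of the deposited expression table: 4 uptake carriers (Slc10a1, Slco1a1, Slco1a4 and Slco1b2), 4 exporters (Abcb11, Abcb4, Abcc2 and Abcc3), the receptor gene Nr1h4 and Nr0b2. Each symbol stood on 1 row, and all 10 were among the 18455 genes that passed the expression filter of edgeR, the program used for testing. Bile acids are made from cholesterol in hepatocytes, secreted across the canalicular membrane into bile, and returned from the gut in portal blood, from which hepatocytes take them up again across the basolateral membrane. FXR, a nuclear receptor that binds bile acids, acts as a heterodimer with RXR and is known for controlling genes of this cycle. Its target SHP lacks a DNA-binding domain and represses transcription through other factors.

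RNA of 6 livers was sequenced, 3 from animals kept on a high-fat diet (HFD group) and 3 from animals on this diet that also received HTG, the herbal Huazhuo Tiaozhi granule (HTG group). The design text gives 12 weeks of intervention and names 0.5% CMC-Na, a cellulose vehicle, for the HFD group. The study's animal methods, which describe rats, have the drugs given in the same vehicle and gavage begin some weeks after the diet, so the HTG group would have had the vehicle too, and the time on HTG may have been shorter. For sequencing, the study's methods describe mRNA selected from total RNA with oligo(dT) beads. The treatment label of the HTG libraries reads HCG, and they were grouped by their titles. The labels name rats and a rat genome build, the sequencing methods of the study name C57BL/6 J mice, and the gene identifiers are those of mouse in Ensembl, by which the genes were read as mouse genes. The labels give no age, sex or strain. The study's animal methods describe male Wistar rats, while its sequencing methods give no sex for the mice they name. The design text counts 6 animals, but no label ties a library to an animal, so that p-values measure the spread between these libraries.

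For every gene and library the table holds an estimated count and an FPKM value, which is scaled by transcript length and sequencing depth. Values of a group are given in the order of its libraries 1, 2 and 3. Depth, as the total of the estimated counts, was 65353298, 70910444 and 69907057 under HFD against 78549295, 90563477 and 50648778 under HTG. Low counts peaked at 4 and 8, which was read as about 4 counts per fragment, although counts of 1 and 2 were frequent too. On that reading a gene without fragments could have had up to 3 of them, or 12 counts, a limit that covers counting error only. The lowest count of any of the 10 genes, 1265 for Slco1a4 in HTG library 3, was far above that limit. FPKM was used to compare levels between genes. Differences between the groups were taken from the counts, scaled by edgeR's TMM method, as log2 fold changes of HTG over HFD, so that a negative value means a lower level in the HTG group.

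Hepatocyte markers were abundant in all 6 libraries. All 8 genes of that marker list were present, with summed FPKM of 35624, 36078 and 41576 under HFD against 33434, 37614 and 30539 under HTG, most of it from Alb. The markers did not move as a block: Cps1, a urea cycle enzyme, had a log2 fold change of -1.62 and Tat, a tyrosine-degrading enzyme, of -1.32, while Apoa2, an apolipoprotein, had 0.85. In these bulk samples fewer cells of a type and less RNA per cell cannot be told apart.

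None of the 10 genes had an adjusted p under 0.05 in edgeR's quasi-likelihood test, in which p-values were adjusted over all genes tested by the method of Benjamini and Hochberg. Of all genes tested 2 passed, Gemin4 and ENSMUSG00000121092, a share of 0.0108%. An unadjusted p under 0.05 was found for 5 of the 10, where the share over all genes tested was 24.7%. Slc10a1, Slco1b2, Abcb4 and Abcc3 were lower in the HTG group, against 12.4% of all genes in that direction, and Nr0b2 was higher, against 12.3%. For the same 5 genes every normalised count of one group lay beyond those of the other, as it did for 32.1% of all genes tested. At an adjusted p under 0.1 the count was 3 of 10, namely Slc10a1, Slco1b2 and Nr0b2, against 10.8% of all genes. DESeq2 gave 3 of 10 at an adjusted p under 0.05, the same 3 genes, against 10.5% of all genes to which it gave an adjusted p. With 3 libraries against 3, an exact two-sided permutation test of a gene cannot go below p = 0.1. The median log2 fold change was -0.07 over the 10 genes and 0.03 over all genes tested.

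**Figure D1:**
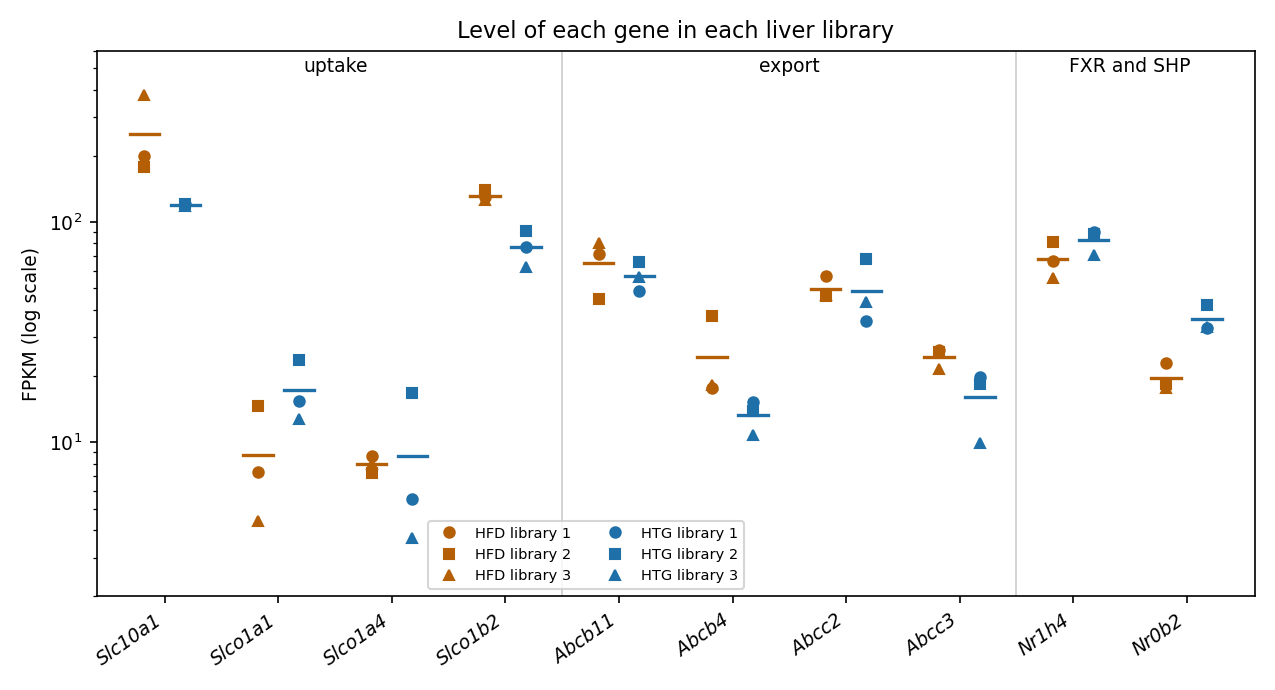
FPKM (log axis) of the 10 genes in each of the 6 liver libraries, with HFD in orange, HTG in blue, symbols for the library number and a bar at the group mean. Slc10a1, Slco1b2, Abcb4 and Abcc3 lie lower in every HTG library than in any HFD library, Nr0b2 lies higher, and the other 5 genes overlap.

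Slc10a1 (ENSMUSG00000021135, chromosome 12, 80999957 to 81015479, minus strand) encodes NTCP, the sodium-dependent carrier that takes conjugated bile acids from portal blood. FPKM of Slc10a1 was 199, 177 and 377 under HFD against 121, 120.5 and 119 under HTG. Every HTG library lay below every HFD library, the HTG libraries were nearly equal, and HFD library 3 stood far above the other HFD libraries. Estimated counts of Slc10a1 were 29786, 28759 and 59942 under HFD against 22183, 25622 and 14049 under HTG. Mean FPKM was 251 ± 109 in the HFD group and 119.99 ± 1.14 in the HTG group (SD, n = 3 per group). The log2 fold change was -1.01 with a standard error of 0.29 (unadjusted p = 0.00807), and its adjusted p of 0.0906 in edgeR's quasi-likelihood test missed 0.05. Without HFD library 3 the log2 fold change was -0.63.

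Slco1b2 (ENSMUSG00000030236, chromosome 6, 141575244 to 141632372, plus strand) encodes OATP1B2, a sodium-independent carrier of unconjugated bile acids, bilirubin and many drugs. FPKM of Slco1b2 was 129.95, 140.5 and 126 under HFD against 76.9, 91.2 and 62.6 under HTG. The groups were apart, and the HFD libraries lay close together. Estimated counts of Slco1b2 were 43496, 51099 and 44799 under HFD against 31665, 43473 and 16615 under HTG. HTG over HFD was -0.75 on the log2 scale, with a standard error of 0.20 (unadjusted p = 0.00594), and the adjusted p in edgeR's quasi-likelihood test was 0.0818.

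Slco1a1 (ENSMUSG00000041698, chromosome 6, 141853008 to 141892688, minus strand) encodes OATP1A1, an organic anion carrier that in mice is known to be more abundant in male than in female liver. FPKM of Slco1a1 was 7.31, 14.7 and 4.38 under HFD against 15.4, 23.6 and 12.8 under HTG. HFD library 2 lay above HTG library 3, so the groups overlapped. The counts ran from 1671 to 5708 in the HFD group and from 3630 to 12048 in the HTG group. On the log2 scale HTG over HFD was 0.97, with a standard error of 0.44 and a 95% interval from -0.03 to 1.96 (unadjusted p = 0.0563), and the adjusted p in edgeR's quasi-likelihood test was 0.217. Without HFD library 2 it was 1.63, without HFD library 3 it was 0.62, and 9 of 16 alternative fits had an unadjusted p under 0.05.

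Slco1a4 (ENSMUSG00000030237, chromosome 6, 141751166 to 141801925, minus strand) encodes OATP1A4, a related carrier of bile acids and cardiac glycosides. FPKM of Slco1a4 was 8.71, 7.23 and 7.96 under HFD against 5.52, 16.7 and 3.66 under HTG. HTG library 2 was above every HFD library, and the other HTG libraries were below. Fitted over all 6 libraries, the log2 fold change was 0.11 with a standard error of 0.45, and it turned to -0.70 without HTG library 2. In edgeR's quasi-likelihood test the adjusted p was 0.905 with all libraries and 0.216 without that one, within a range of 0.216 to 0.948 over 16 alternative fits. The limma fits of FPKM gave -0.18 and -0.14, against 0.11 from the counts.

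The 3 Slco genes lie within 317445 bases of chromosome 6, in a stretch that holds 6 gene rows. Reads of closely related Slco1a genes could be split between them, so their counts are uncertain to that extent. The further copies Slco1a5 and Slco1a6 had at most 0.01 FPKM in any library.

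Abcb11 (ENSMUSG00000027048, chromosome 2, 69068626 to 69172960, minus strand) encodes BSEP, the ATP-driven pump that moves bile salts into the canaliculus. FPKM of Abcb11 was 71.9, 44.6 and 80.1 under HFD against 48.7, 66.2 and 56.4 under HTG. All HTG libraries lay inside the HFD range, whose lowest value was that of HFD library 2. Estimated counts of Abcb11 were 25136, 16946 and 29807 under HFD against 20923, 32939 and 15627 under HTG. The log2 fold change was -0.14 with a standard error of 0.24 and a 95% interval from -0.69 to 0.40. Its adjusted p was 0.743 in edgeR's quasi-likelihood test, and without HFD library 3 the log2 fold change was 0.0022.

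Abcc2 (ENSMUSG00000025194, chromosome 19, 43770631 to 43829179, plus strand) encodes MRP2, the canalicular pump for conjugated bilirubin and other conjugates. FPKM of Abcc2 was 56.9, 45.95 and 46.8 under HFD against 35.4, 67.9 and 43.3 under HTG. The HTG group held both the lowest and the highest library. Its log2 fold change was 0.0011 with a 95% interval from -0.57 to 0.57, and the sign of so small a value turned under scaling with DESeq2's size factors (-0.025) and with mitochondrial rows left out (-0.0032).

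Abcb4 (ENSMUSG00000042476, chromosome 5, 8943717 to 9009226, plus strand) encodes MDR2, which moves phosphatidylcholine into bile and carries no bile salt. FPKM of Abcb4 was 17.7, 37.6 and 18.3 under HFD against 15.2, 13.9 and 10.8 under HTG. The groups were apart, but HFD library 2 alone was far above the rest. Between the groups the log2 fold change was -0.87, with a standard error of 0.34 (unadjusted p = 0.0338), and the adjusted p was 0.165 in edgeR's quasi-likelihood test. Without HFD library 2 it was -0.36, with an unadjusted p of 0.134, and 12 of 16 alternative fits had an unadjusted p under 0.05.

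Abcc3 (ENSMUSG00000020865, chromosome 11, 94234121 to 94283802, minus strand) encodes MRP3, which exports conjugates across the basolateral membrane back to blood. FPKM of Abcc3 was 26.4, 25.7 and 21.5 under HFD against 19.8, 18.5 and 9.96 under HTG. The groups were narrowly apart, and HTG library 3, the library with the fewest counts, was the lowest. The log2 fold change was -0.58 with a standard error of 0.25 (unadjusted p = 0.0492), and the adjusted p was 0.201 in edgeR's quasi-likelihood test. Without HTG library 3 it was -0.36, with an unadjusted p of 0.17, and 10 of 16 alternative fits had an unadjusted p under 0.05.

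Nr1h4 (ENSMUSG00000047638, chromosome 10, 89290096 to 89369447, minus strand) encodes FXR. FPKM of Nr1h4 was 66.6, 81.1 and 55.8 under HFD against 90.1, 88.3 and 70.7 under HTG. The groups overlapped, since HFD library 2 was above HTG library 3. Estimated counts of Nr1h4 were 10420, 13777 and 9289 under HFD against 17328, 19659 and 8767 under HTG. For FXR the log2 fold change was 0.32, with a standard error of 0.22 and a 95% interval from -0.19 to 0.83. Its adjusted p was 0.407 in edgeR's quasi-likelihood test, and the log2 fold change was 0.53 without HFD library 2, 0.17 without HFD library 3 and 0.21 without HTG library 1.

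Nr0b2 (ENSMUSG00000037583, chromosome 4, 133280687 to 133283847, plus strand) encodes SHP, which is induced by FXR. FPKM of Nr0b2 was 22.8, 18.4 and 17.6 under HFD against 33.2, 42.1 and 33.3 under HTG. Every HTG library was above every HFD library, and the gap between the groups was wider than the spread inside either. Estimated counts of Nr0b2 were 1754, 1533 and 1445 under HFD against 3136, 4605 and 2028 under HTG. Mean FPKM was 19.6 ± 2.80 in the HFD group and 36.2 ± 5.10 in the HTG group (SD, n = 3 per group). The log2 fold change was 0.92 with a standard error of 0.16 and a 95% interval from 0.55 to 1.30 (unadjusted p = 0.000425). It had the smallest p of the 10 genes, rank 141 of the 18455 tested, and missed the threshold with an adjusted p of 0.055 in edgeR's quasi-likelihood test. Among 16 alternative fits, 6 put it under 0.05, with adjusted p from 0.00229 to 0.188 over all 16. The FPKM of Nr0b2 over that of Nr1h4 was 0.342, 0.226 and 0.316 under HFD against 0.368, 0.476 and 0.47 under HTG.

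**Figure D2:**
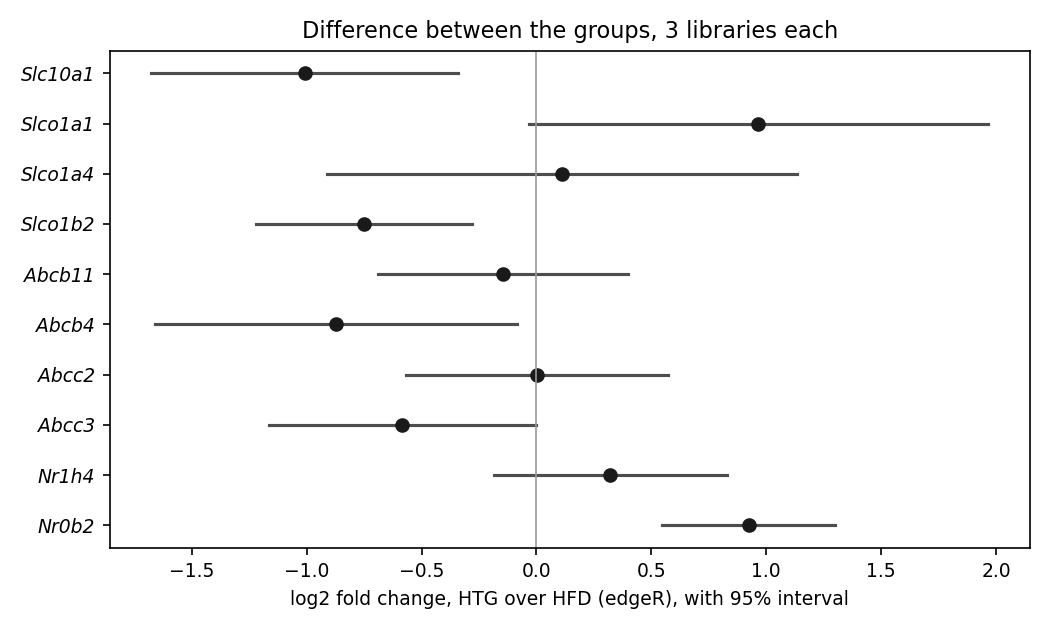
Log2 fold change of HTG over HFD for the 10 genes from edgeR, points with 95% intervals, 3 libraries per group. The interval of Nr0b2 lies above 0, those of Slc10a1, Slco1b2, Abcb4 and Abcc3 lie below 0, and no gene had an adjusted p under 0.05.

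By level on the FPKM scale, Slc10a1 was first in both groups. In the HFD group Slco1b2 followed at a mean of 132, above the ranges of all the genes that came after it. Nr1h4 (67.8), Abcb11 (65.6) and Abcc2 (49.9) were next, with Abcb11 overlapping both of its neighbours. Abcc3 and Abcb4 had nearly the same mean (24.5) and overlapped each other, Abcb4 overlapped Nr0b2, and the lowest pair, Slco1a1 and Slco1a4, overlapped too. In the HTG group Nr1h4 (83.0) came before Slco1b2 (76.9), within overlapping ranges, and Nr0b2 stood above Abcc3 and Abcb4. There only Slc10a1 and Nr0b2 were clear of the gene that followed them. Relative to its own mean, normalised count varied most in the HTG group for Slco1a4, with a coefficient of variation of 75.2%. In the HFD group it varied most for Slco1a1 (66.2%), Abcb4 (52.5%) and Slc10a1 (40.7%). The median over the 10 genes was lower than over all genes tested, at 18.8% against 24.0% in the HFD group and 13.2% against 22.1% in the HTG group.

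Uptake was set against export by the summed FPKM of the 4 uptake carriers over that of Abcb11, Abcc2 and Abcc3, with Abcb4 kept out as a phospholipid carrier. Summed uptake was 345, 339.6 and 515 under HFD against 219, 252 and 198 under HTG, and each HTG total was the smaller. Summed export was 155, 116 and 148 under HFD against 104, 153 and 109.6 under HTG, and the groups overlapped. Uptake over export was therefore 2.22, 2.92 and 3.47 under HFD against 2.10, 1.65 and 1.80 under HTG. The HTG libraries were all below the HFD libraries, with HFD library 1 and HTG library 1 close together. On the log2 scale the mean was 1.5 ± 0.32 in the HFD group and 0.88 ± 0.18 in the HTG group (SD, n = 3 per group), a difference of -0.62, given as a description without a test. Slc10a1 and Slco1b2 made up most of summed uptake: Slco1a1 and Slco1a4 together were 4.64%, 6.45% and 2.40% of it under HFD against 9.56%, 16.0% and 8.31% under HTG. When every gene had the same weight, as the mean of log2(FPKM + 0.1), the difference turned to 0.085, a summary in which Slco1a1 counts as much as Slc10a1. Slc10a1 over Abcb11 alone was 2.77, 3.97 and 4.71 under HFD against 2.48, 1.82 and 2.10 under HTG. On the export side, Abcc3 made up 17.0%, 22.1% and 14.5% of the sum under HFD against 19.1%, 12.1% and 9.08% under HTG, with overlapping groups.

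**Figure D3:**
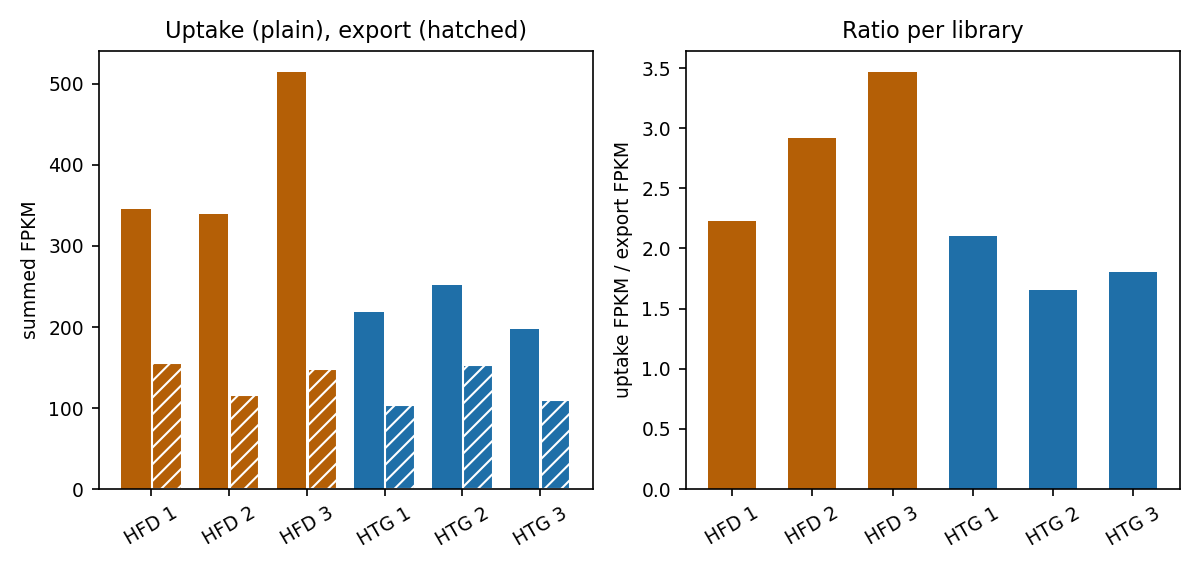
Left, summed FPKM of the uptake carriers (plain bars) and of Abcb11, Abcc2 and Abcc3 (hatched bars) in each HFD (orange) and HTG (blue) library; right, their ratio. Uptake lies between 198 and 252 in the HTG libraries and between 339.6 and 515 in the HFD libraries, while export overlaps.

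The table's own annotation places all 10 genes in the KEGG entry for bile secretion and 9 of them in the GO term for bile acid and bile salt transport. Abcb4 is the one outside the latter. Of the 4 listed genes that overlap one of the 10 in position, Gm17936, a pseudogene inside Abcb4, had the most counts for its host, 0.349% of those of Abcb4.

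Genes of the same pathway were read by lists. In edgeR's quasi-likelihood test, 0 genes of the 7 lists had an adjusted p under 0.05, whereas DESeq2 and limma, on log2(FPKM + 0.1), gave some in most lists. The shares over all genes, for comparison, were 12.3% in the higher and 12.4% in the lower direction before adjustment in edgeR, and 10.5% in DESeq2 and 8.03% in limma after it. Of the 15 tested genes among other carriers of bile acids and organic anions, 4 had higher and 3 had lower values under HTG at an unadjusted p under 0.05, with a median log2 fold change of -0.23, and 6 passed at an adjusted p under 0.05 in DESeq2 and 1 in limma. Abcg5, which with Abcg8 moves sterols into bile, had 39.8, 23.4 and 29.8 under HFD against 54.8, 155 and 54.8 under HTG (log2 fold change 1.52). Abcc6, a basolateral exporter, had between 25.3 and 55.8 FPKM and a log2 fold change of 0.58. Of other exporters of that membrane, Abcc4 had between 0.16 and 0.68 FPKM, and Slc51b, the beta subunit of OST, between 0.11 and 3.36 with overlapping groups. Slc51a, its alpha subunit, had 1, 8 and 3 counts under HFD, all below the limit of an empty gene, against 41, 107 and 22 counts under HTG. It was among the 4 higher genes but passed the expression filter only through its HTG counts, so its call carries no weight. The median of this list includes it.

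Among partners and other regulators of FXR, 3 of 16 tested genes were higher and 3 were lower at an unadjusted p under 0.05, with a median log2 fold change of -0.07, and 4 passed after adjustment in DESeq2 and 2 in limma. Rxra, the partner of FXR on DNA, had FPKM of 60.7, 61.6 and 59.9 under HFD against 40.7, 33.9 and 32.0 under HTG. The groups were well apart, with a log2 fold change of -0.73 (standard error 0.20, adjusted p = 0.0785 in edgeR's quasi-likelihood test), opposite in sign to that of Nr1h4 (0.32). Hnf4a, a hepatocyte transcription factor, had a log2 fold change of -0.71 and overlapping groups, with HFD library 2 at 203 FPKM and the others between 66.8 and 96.5. Fgfr4, the receptor for the gut hormone FGF15, had 0.30. Gpbar1, the membrane bile acid receptor, was listed at 0 FPKM in every library.

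Of 13 genes of bile acid synthesis and conjugation, 3 were lower and 0 were higher at an unadjusted p under 0.05 in edgeR's quasi-likelihood test. By sign, 11 had a negative log2 fold change, where the share over all genes tested was 48.4%, and the median was -0.37. After adjustment 2 passed in DESeq2 and 2 in limma. Cyp7a1, the rate-limiting enzyme of the classical pathway, had FPKM of 42.7, 38 and 78.5 under HFD against 44.8, 32.3 and 16.8 under HTG, with overlapping groups. Cyp8b1, which makes the precursor of cholic acid, had 116, 326 and 197 under HFD against 125, 20.4 and 7.89 under HTG. HTG library 1 lay among the HFD libraries, while HTG libraries 2 and 3 were far below them (log2 fold change -2.05, standard error 0.91, adjusted p = 0.207 in edgeR's quasi-likelihood test). Scp2, Cyp27a1 and Cyp2c70, the most abundant of the list, had log2 fold changes of -0.06, -0.20 and 0.70, with overlapping normalised counts. In FPKM the HTG libraries of Cyp27a1 lay just below those of HFD, the nearest at 236 and 237.

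Of 11 receptors for foreign compounds and their targets, 6 were lower and 0 were higher at an unadjusted p under 0.05 in edgeR's quasi-likelihood test, with a median of -1.11, and 5 passed after adjustment in DESeq2 and 3 in limma. Cyp2a5 had FPKM of 1824, 1934 and 657 under HFD against 319.6, 258 and 120.2 under HTG (log2 fold change -2.65). Ugt1a1, which conjugates bilirubin for export by MRP2, had a log2 fold change of -0.78, and Gstm1 of -0.54. Of 12 tested genes for anchors and traffic of these carriers, 5 were lower and 0 were higher, with a median of -0.27, and 2 passed after adjustment in DESeq2 and 1 in limma. Rdx, whose product radixin ties MRP2 to the canalicular membrane, had 27.3, 25.6 and 26.9 under HFD against 15.6, 13.7 and 11.2 under HTG (log2 fold change -0.94, standard error 0.18). Slc9a3r1 and Hax1 had log2 fold changes of 0.02 and -0.23 with overlapping groups.

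Because levels of Slco1a1 and Slco1a4 depend on sex in mice, sex-biased liver genes were read as well. Of 13 male-biased genes, 3 were higher and 1 was lower at an unadjusted p under 0.05, with a median log2 fold change of -0.09, and 4 passed after adjustment in DESeq2 and 3 in limma. The 3 higher genes were Hsd3b5, Selenbp2 and Cyp2u1 (log2 fold changes of 3.60, 2.46 and 1.25), and the lower one was Ugt2b38 (-2.10). Mup20, Mup7 and Cyp2d9, the most abundant of the list, had log2 fold changes of -0.09, -0.55 and -0.47 with overlapping groups. Of 14 female-biased genes 6 passed the expression filter, and 2 of these were higher and 0 lower, with a median log2 fold change of 0.73. DESeq2 passed 2 after adjustment and limma 0. The 2 higher genes were Cyp2c40 and A1bg. A1bg had 0, 0 and 4 counts under HFD against 33, 19 and 8 under HTG, where HTG library 3 too lay below the limit of an empty gene. A1bg passed the filter only through its HTG counts, so its call carries no weight, and the median of 0.73 includes it. The other tested genes of the list ran from -0.86 to 1.24. Cyp2c40 had at most 17.5 FPKM, Cyp17a1 at most 20.3 and Cyp2c69 at most 7.03, with log2 fold changes of 1.01, -0.86 and 1.24. The Mup and Cyp2 families hold near-identical copies, so reads of these genes could be split between neighbours.

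Over the 6 libraries the genes most like Slc10a1 in log2 normalised count were Rnf103, Slc20a2 and Cited2 (Pearson r of 0.996, 0.994 and 0.994). For Abcb11 they were Tdrkh, Plekhg6 and Sspn (0.993, 0.993 and 0.99), and for Nr1h4 Rps19-ps1, Id3 and Gm48882 (0.992, 0.991 and 0.988). With 6 points such values are common: 455 genes had an r over 0.9 with Slc10a1, 143 with Abcb11 and 315 with Nr1h4. They are given as a description.

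Other cell types and library features were measured beside these results, and their part in them was not tested. Of the cholangiocyte markers, all 6 were listed, with summed FPKM of 49.5, 51.8 and 61.4 under HFD against 36.9, 33.2 and 66.5 under HTG, nearly all of it Spp1. Sox9 had FPKM of 0.91, 0.67 and 1.05 under HFD against 1.41, 1.53 and 1.47 under HTG, and Epcam had 1.25, 1.62 and 0.86 against 0.81, 0.57 and 0.51. These markers lay apart in opposite directions, with log2 fold changes of 0.79 and -0.95, while Krt19 reached at most 1.22 FPKM, and Krt7 and Cftr at most 0.19. The 6 markers of Kupffer cells and macrophages, led by Clec4f, summed to 256, 105.6 and 282 under HFD against 177, 207 and 103 under HTG, with overlapping groups. Adgre1 had a log2 fold change of -1.53, and the others lay between -0.63 (Marco) and -0.08 (Clec4f). Normalised counts of the groups were apart for Adgre1 and Csf1r (-0.45). The 5 red cell markers, led by Hbb-bs, summed to between 229.6 and 613. The 5 lymphocyte markers, led by Ptprc, summed to at most 4.10 FPKM in any library, the 6 stellate cell markers, led by Col3a1, to at most 13.9, and the 5 markers of sinusoidal endothelium, led by Clec4g, to at most 24.6. Of the 4 ileal markers 2 were listed, nearly all of it Slc10a2 (4.43 to 12.35 FPKM), and Vil1 was at most 0.05. Of the 4 pancreatic markers 2 were listed, Cela2a at no more than 2.49 FPKM and Pnlip at 0.

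Genes of the mitochondrial chromosome held 6.45%, 4.97% and 5.24% of all counts under HFD against 9.31%, 15.2% and 13.2% under HTG. Leaving these genes out before scaling hardly moved the TMM scaling, with a median log2 fold change over all genes tested of 0.0229 in place of 0.025, and is no test of their part in the results. In that fit Abcc3 no longer had an unadjusted p under 0.05 in edgeR (0.0533), which left 4 of the 10 genes.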

How the data were processed

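Liver RNA of 3 HFD and 3 HTG animals was analysed, grouped by the titles of the samples. For each gene the deposited table gives an estimated count in every library, in whole numbers and without scaling between libraries. The authors also deposited FPKM, scaled by transcript length and library size. The submitters' processing notes name HISAT2, StringTie, SAMtools and the rat build mRatBN7.2, whereas the rows hold mouse genes. The build of the coordinates is not given in the sources used here, nor is whether counting used the strand, so counts of overlapping genes are uncertain. Low counts peaked at 4 (6450 values, against 2549 of 3 and 1757 of 5) and 8 (3333, against 1521 of 7 and 1170 of 9), but values of 1 (5104) and 2 (4229) were also frequent, which whole steps of 4 would not give. Depth in fragments was therefore only approximated, as the totals over 4, or 12662194 to 22640869 fragments per library.

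The counts were tested with edgeR 4.0.16 (filterByExpr, TMM, glmQLFit and glmQLFTest, group as the only term) in R 4.3.3, and p-values were adjusted by the Benjamini-Hochberg method over the 18455 genes tested. Standard errors were taken from the fold change and its F value. The test was checked on simulated counts. Alternatives were DESeq2 1.42.0, limma 3.58.1 on log2(FPKM + 0.1) and log2(FPKM + 1) (genes averaging 1 FPKM or more), no filter, a minimum of 10 counts in each library, other scalings, mitochondrial rows left out, counts divided by 4, the replicate number as a block, and each library left out in turn. Uptake against export was described on FPKM without a test. Of each list, the 3 genes with the highest mean FPKM were named, with Slc51a, Slc51b, Abcc4, Rxra, Cyp7a1 and Cyp8b1 for their role. Of the genes this rule names, 1 is not reported here. Apart from these, Gemin4, ENSMUSG00000121092, Gpbar1, Klb, Slco1a5, Slco1a6, A1bg, Hsd3b5, Selenbp2, Cyp2u1 and Ugt2b38 were named after their values were seen. So were the genes overlapping a member and the cell type markers singled out. The members and lists were chosen with earlier results of these data known. The RefSeq tables at hand are of rat and were not used here. Figures were drawn with matplotlib 3.10.9.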

Additional observations from a re-analysis of the deposited data

How the results depend on the processing

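The count of genes with an adjusted p under 0.05 was 2 in edgeR's quasi-likelihood test and moved widely: 2089 in DESeq2, 684 with at least 10 counts in every library, 822 with counts divided by 4, 878 and 884 in limma on log2(FPKM + 0.1) and log2(FPKM + 1), 14 without mitochondrial rows, 162 without a filter, and 2001 at an adjusted p under 0.1. Leaving out 1 library at a time gave 0 to 653, with 653 without HTG library 1, 7 without HFD library 2 and 0 when HFD library 3, HTG library 2 or HTG library 3 was out. Of the 878 limma calls 326 were higher and 552 lower, against 1 and 1 in edgeR. Of the 10 genes, 0 passed in edgeR, against 3 in DESeq2, 3 at an adjusted p under 0.1, 1 with at least 10 counts in every library, 1 with counts divided by 4, 1 in each limma fit, and 0 to 1 with 1 library left out. At an unadjusted p under 0.05 the count was 5 in edgeR, 6 in DESeq2, in both limma fits, with at least 10 counts in every library, with counts divided by 4 and without a filter, 4 without mitochondrial rows, and 3 to 5 with 1 library left out (3 without HTG library 3). Nr0b2 passed in DESeq2 (0.90), with at least 10 counts (0.93), with counts divided by 4 (0.94), in limma (0.88 and 0.85) and without HTG library 1 (0.94), with a range of 0.83 to 1.01 over libraries left out. In DESeq2, Slc10a1 (-1.04) and Slco1b2 (-0.78) passed too. The cause of these moves was not tested.

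Some signs turned. Abcc2 was -0.027 in DESeq2, -0.025 with its size factors, -0.078 and -0.076 in limma, -0.0032 without mitochondrial rows and -0.0071 without a filter, and lay between -0.24 and 0.14 with 1 library left out. Slco1a4 was -0.18 and -0.14 in limma and between -0.70 (without HTG library 2, unadjusted p = 0.013 in edgeR) and 0.45 with 1 library left out, and Abcb11 lay between -0.33 and 0.0022. Uptake against export turned from -0.62 to 0.085 as a mean of log2 values, and was -0.82 for Slc10a1 over Abcb11, and -0.79 to -0.47 with 1 library left out.

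The deviations of same-numbered libraries from their group means correlated with r of -0.078, -0.073 and 0.10. HTG libraries 1 and 2 correlated best with another number (0.18 with HFD library 2 and 0.064 with HFD library 1), and HTG library 3 with its own. Deviations from a mean of 3 libraries depend on each other, so these values cannot decide whether the replicate numbers pair the libraries. With the replicate block, 0 genes had an adjusted p under 0.05 in edgeR, against 3867 with an unadjusted p under 0.05, Abcc2 was -0.033 and Slco1a4 -0.16. Of the 10 genes 5 had an unadjusted p under 0.05 with the block, as without it, but with Slco1a1 (1.15, unadjusted p = 0.00495) among them and Abcb4 (-0.76, unadjusted p = 0.056) not. With 3 libraries a group, differences inside the 95% intervals could not be resolved, and HTG library 3 had the least depth.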
